A study of Mus musculus with 2 samples.

Results

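The hairpins with numbers from Mir3057 to Mir3113 were described in the midbrain of newborn mice. Every microRNA gene with a row in both count tables and a symbol in that range was taken, with any letter or copy suffix and without Mir3102, which gave 49 of the 1973 genes of the tables. No measured value entered this choice. MicroRNA-seq reads short RNAs after size selection, here under 30 bases per the labels, and the levels below are counts on the gene's own strand. There were 2 libraries, each from total RNA of 1 untreated midbrain of the B6NCrl strain at an age of 0 days, from pup 1 and pup 3. They form 1 group with no second genotype, age or treatment. The labels give both animals 1 donor identifier and state no sex. Differences between the libraries therefore measure only the spread between these samples, which may be technical. The values come from whole tissue, so fewer cells of a type and less RNA per cell cannot be told apart.

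MicroRNAs are cut from hairpin precursors, first by Drosha in the nucleus and then by Dicer in the cytoplasm, and 1 arm of the hairpin usually stays in an Argonaute protein. The bases just after its first base, the seed, pair with target messenger RNAs and decide most of its targets. Numbers are handed out in order of discovery. The hairpins described here came from deep sequencing after the abundant and conserved families had been named, and many lie in introns of protein-coding genes and are processed from their transcripts. Some, called mirtrons, have an end set by splicing in place of Drosha.

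The mature products of Mir3099, Mir3059, Mir3072 and Mir3061 are shown because these are the most abundant hairpins of the range that overlap no other hairpin. They are the RefSeq entries on GRCm38.p6, written 5′ to 3′ with the seed (bases 2 to 8) in capitals.
miR-3099-5p: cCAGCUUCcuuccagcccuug
miR-3099-3p: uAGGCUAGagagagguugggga
miR-3059-5p: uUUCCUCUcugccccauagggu
miR-3059-3p: cCUCUAGGgaagagaagguugg
miR-3072-5p: aGGGACCCcgagggagggcagg
miR-3072-3p: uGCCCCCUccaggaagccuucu
miR-3061-5p: cAGUGGGCcgugaaagguagcc
miR-3061-3p: cUACCUUUgauaguccacugcc
These 8 seeds differ from each other. The count tables give 1 value per hairpin, so which arm the reads came from was not analysed here.

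In these animals 20 of the 49 hairpins (40.8%) were detected, which took 10 or more counts in each library, while 18.2% of all genes of the tables were detected. At least 1 count was seen for 44 of them, against 35.3% of all genes. Both shares over all genes are lowered by 922 genes with neither a Mir number nor a let-7 symbol. Of these 922, 3 (0.325%) were detected and 37 had any count. Shares by number range are given below. The levels of the detected hairpins were low. The median over the 20 detected was 12.2 CPM, own-strand counts scaled to a sum of 1000000 over genes, against 225 CPM over all 359 detected genes. Of the 20 detected, 13 lay under 20 CPM. A level of 100 CPM was reached by 4 of the 49, and by 11.3% of all genes (222 of 1973). Without the row listed as Mir3071 it was reached by 3 of 48. Together the 49 took 6567 counts in pup 1, or 0.281% of the library (exact Clopper-Pearson 95% interval 0.274 to 0.288). In pup 3 they took 9831 counts, or 0.308% (0.302 to 0.314). The row listed as Mir3071 made up 52.4% of these counts. Without it the hairpins held 0.136% and 0.144%, a mean of 0.140% ± 0.00567 (SD, n = 2).

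**Figure D1:**
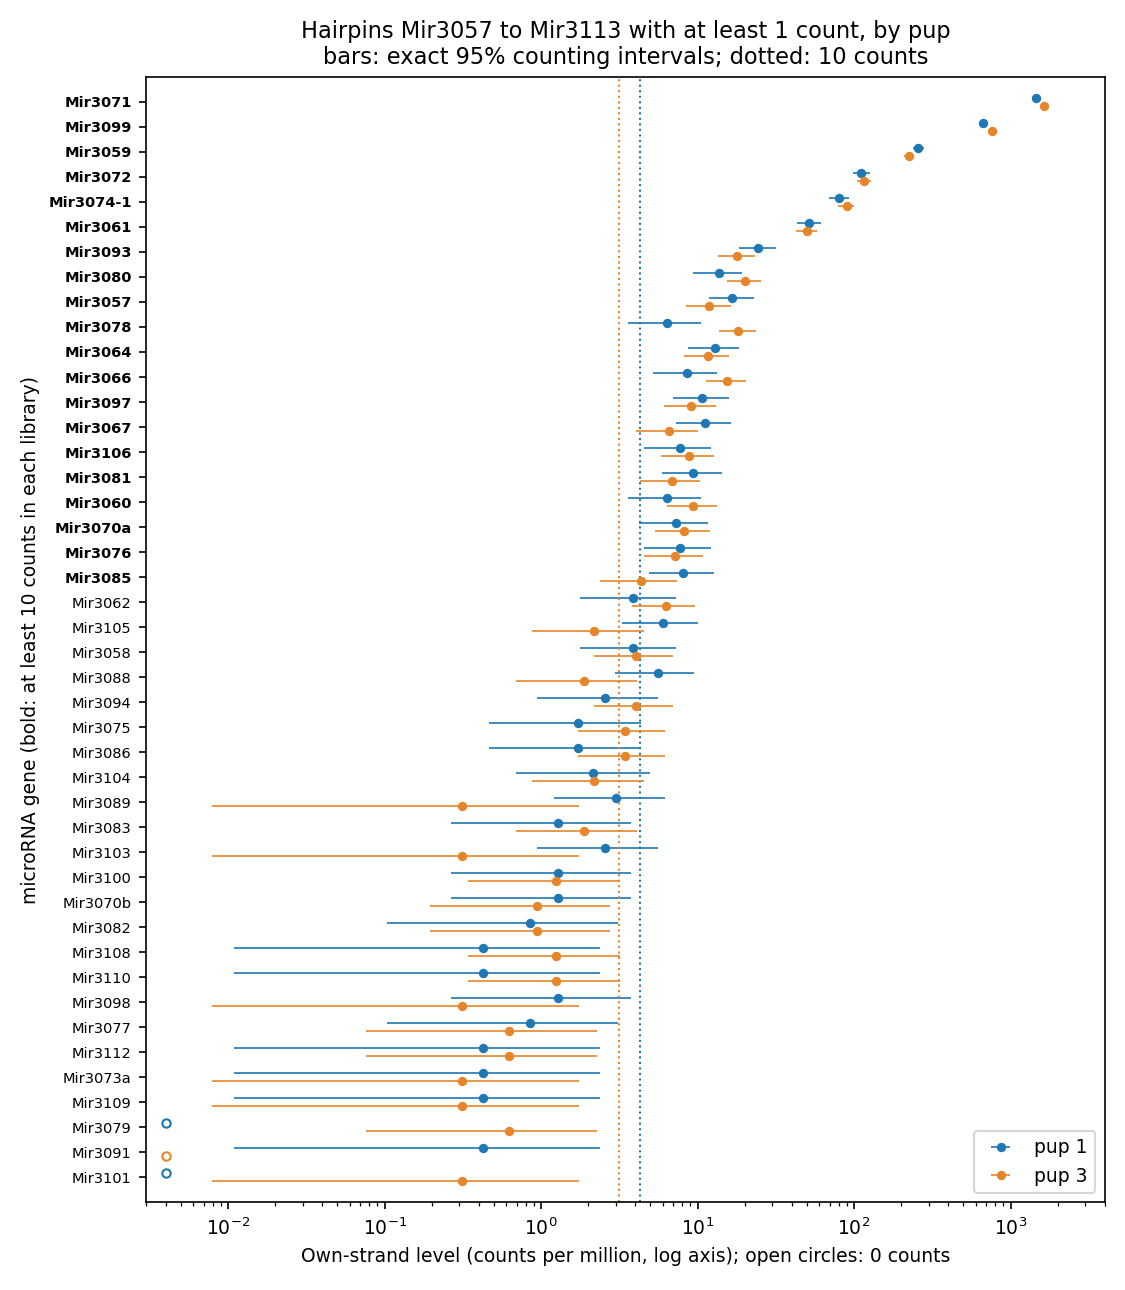
Own-strand level of each hairpin with a count (CPM, log axis) in pup 1 and pup 3, with exact 95% counting intervals, dotted lines at 10 counts in each library, and open circles at the left edge for 0 counts. Mir3071 and Mir3099 lie far above the others, and 13 of the 20 detected hairpins (bold names) lie under 20 CPM.

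The libraries held 2337113 and 3195277 own-strand counts on genes, out of 5461825 and 7382778 reads. A count of 0 was taken to allow up to 3 counts, a level of 1.28 CPM for pup 1 and of 0.939 CPM for pup 3. The upper end of the exact two-sided 95% interval at 0 counts lies at 1.58 and 1.15 CPM. A value of 10 counts stands for 4.28 and 3.13 CPM. Intervals and such limits cover counting error only, since PCR copies of a molecule were counted as separate reads. Reads that mapped to several places, 38.7% and 39.8% of all reads, were counted under no gene. The labelled tissue was checked against markers. The 6 neuronal and midbrain markers ranged from Mir137 at 24297 ± 3132 CPM and Mir135b at 13579 ± 186 CPM down to Mir9-3 at 389 CPM and Mir124a-1 at 11.6 CPM. Mir206 of striated muscle held 19.7 CPM and Mir122 of liver 53.3 CPM. The muscle hairpins Mir1a-1 and Mir133a-1 had 0 counts, but they share runs of 28 and 31 bases with other hairpins, as Mir9-3 and Mir124a-1 share runs of 26 and 32. Reads within such runs enter no gene, so these 4 levels say little about the tissue. Mir128-1, also among the 6 neuronal and midbrain markers, shares a run of 23 bases, so its level is uncertain too. Endothelial Mir126a held 33142 ± 4309 CPM.

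The first-ranked row needs care before its value is read. The gene listed as Mir3071 (ENSMUSG00000070129) had 3387 counts in pup 1 and 5227 in pup 3. These are 1449 and 1636 CPM, a mean of 1543 ± 132 CPM and rank 86 among all genes. In GENCODE M21 it lies on the minus strand of chromosome 12 from 109595318 to 109595397, inside a coding exon of Rtl1, the retrotransposon-derived imprinted gene that the paternal chromosome expresses. Mir136, a long-known hairpin of the maternal chromosome, lies at the same place on the plus strand, and no row carries its symbol. The tables name version 1 of this gene and M21 has version 2, and the position and strand of version 1 were not analysed here. Whether these reads came from miR-3071 or from miR-136 cannot be told apart.

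The sequences of both hairpins are shown since strand is all that separates them. Capitals mark the seed.
miR-3071-5p: aCUCAUUUgagacgaugaugga
miR-136-3p: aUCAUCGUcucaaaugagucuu
miR-3071-3p: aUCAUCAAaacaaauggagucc
miR-136-5p: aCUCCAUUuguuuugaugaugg
The first pair is complementary over a run of 19 bases and the second over a run of 20 bases. The row had 0 counts on its opposite strand in pup 1 and 1 count in pup 3. In M21 32 genes of the tables overlap a hairpin on the other strand that has no row. Of the 26 with at least 100 counts on either strand in both pups together, 15 had most of them on their own strand and 11 on the opposite strand. Mir3071 was among the 15.

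**Figure D2:**
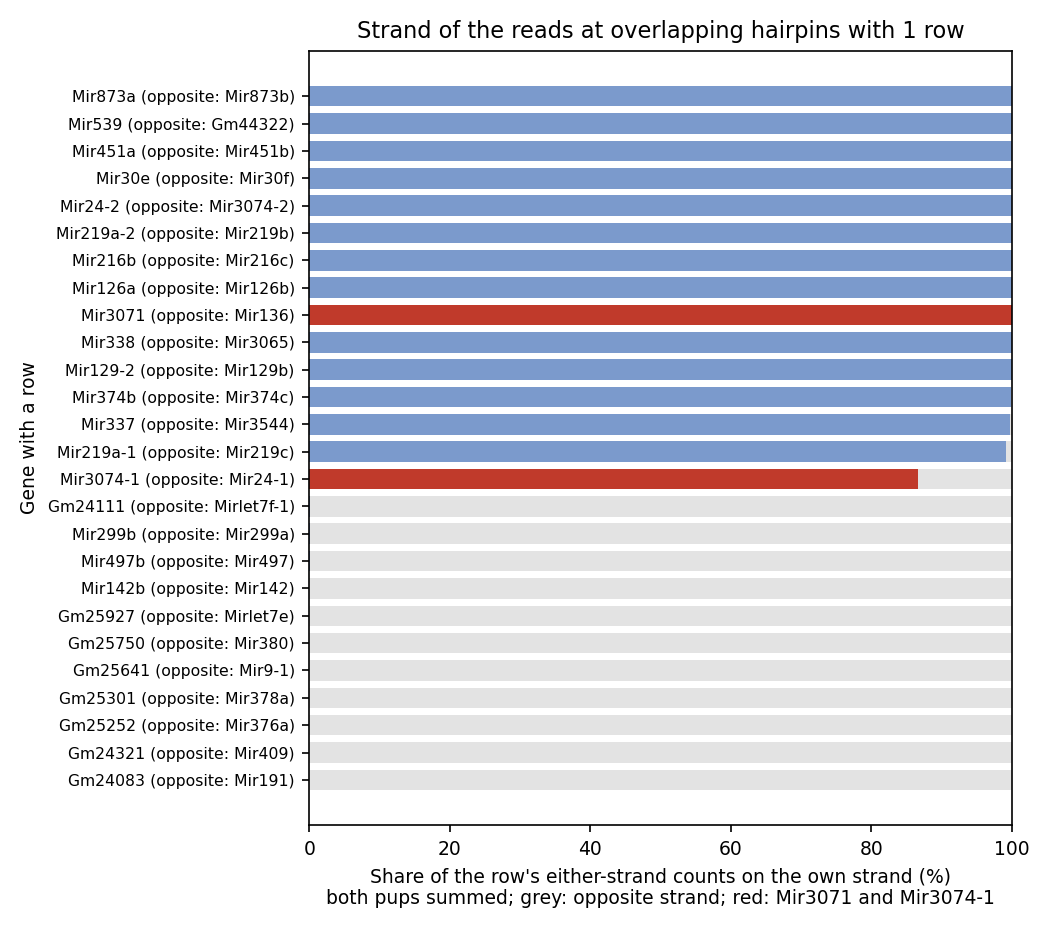
Share of either-strand counts on the own strand (%, both pups summed) for the 26 genes that overlap a hairpin with no row of its own and have at least 100 counts, with grey for the opposite strand. Mir3071 and Mir3074-1 (red) are among the 15 genes with most counts on their own strand, and the other 11 genes had almost all counts on the opposite strand.

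Mir3099 (ENSMUSG00000092815) was the most abundant hairpin of this range whose row has no such overlap. It had 1557 counts in pup 1 and 2447 in pup 3, or 666 and 766 CPM, a mean of 716 ± 70.4 CPM and rank 115 of 1973. Both animals placed it below the row listed as Mir3071 and above Mir3059, with no overlap between them. It lies on the plus strand of chromosome 7 from 6803587 to 6803670 in an intron of Usp29, a paternally expressed gene of the imprinted Peg3 domain. The whole hairpin is shown, as RefSeq gives it, with both mature arms in capitals.
Mir3099: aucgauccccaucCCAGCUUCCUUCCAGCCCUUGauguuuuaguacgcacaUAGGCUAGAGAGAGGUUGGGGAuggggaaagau

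Mir3059 (ENSMUSG00000092952) had 602 and 722 counts, or 258 and 226 CPM, a mean of 242 ± 22.4 CPM. It lies on the plus strand of chromosome 10 from 101772692 to 101772772 in an intron of Mgat4c, which encodes a protein related to the enzymes that branch N-glycans. The seed of miR-3059-5p, given above, is shared with miR-5616-5p and with no other mature mouse sequence of the RefSeq table. Mir3061 (ENSMUSG00000092870) had 121 and 159 counts, or 51.8 and 49.8 CPM, a mean of 50.8 ± 1.42 CPM. It lies on chromosome 11 from 52126746 to 52126836 in a UTR exon of Ppp2ca, the catalytic subunit of protein phosphatase 2A.

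Mir3074-1 (ENSMUSG00000092741) is the other detected hairpin that lies opposite a known one. It had 188 counts in pup 1 and 286 in pup 3, or 80.4 and 89.5 CPM, a mean of 85.0 ± 6.41 CPM. It lies on the minus strand of chromosome 13 from 63301199 to 63301283, in an intron of the Fanconi anemia gene Fancc and opposite Mir24-1, which has no row. Its version also differs between the tables and M21. The mature products are shown because they are complementary over a run of 20 bases.
miR-3074-5p: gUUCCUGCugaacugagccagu
miR-24-3p: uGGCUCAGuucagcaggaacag
The hairpin shares a run of 30 bases with Mir3074-2, which has no row, and the reverse complement of such a run with Mir24-2. Reads that fall wholly within a shared run map to more than 1 place and enter no gene, so this level is uncertain. The position and strand of version 1 were not analysed here, and whether the reads came from miR-3074 or from miR-24 cannot be told apart. Mir3073a, which lies opposite Mir3073b, a hairpin with no row, had 1 count in each library. Its version is the same in the tables and in M21.

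The order of the 6 most abundant rows, Mir3071, Mir3099, Mir3059, Mir3072, Mir3074-1 and Mir3061, was the same in both animals. The CPM ranges of neighbours in that order did not overlap, and Mir3061 was also clear of Mir3093 below it. From Mir3093 down, the ranges of neighbours overlapped at each step, so the order there was not resolved. The top 3 rows held 84.9% of all counts of these hairpins and the top 6 held 93.4%.

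A group of the hairpins comes from the Dlk1-Dio3 domain. This imprinted region of chromosome 12 holds one of the largest microRNA clusters of the mouse, expressed from the maternal chromosome and abundant in brain. Of the 59 genes of the tables that lie between Dlk1 and Dio3, 4 belong to the range described here, and 3 of these were detected. Mir3072 (ENSMUSG00000093351), in an intron of the noncoding transcript Mirg on the plus strand from 109747878 to 109747960, had 260 and 370 counts. These are 111 and 116 CPM, a mean of 114 ± 3.22 CPM, the closest match between the animals among the hairpins over 100 CPM. Mir3070a had 17 and 26 counts, or 7.71 ± 0.610 CPM, and Mir3070b 3 counts in each library.

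The surroundings gave higher values for most hairpins. The 44 other detected genes of the domain had a median of 575 CPM. By level, Mir3071 ranked 18, Mir3072 ranked 37, Mir3070a ranked 47 and Mir3070b ranked 48 of the 59. Mir3070a and Mir3070b share a run of 43 bases, and reads within it are counted under neither. Mir337 at 1442 CPM, Mir540 at 404 CPM and Mir665 at 556 CPM lie within 10 kb of Mir3070a, as do Mir127 at 11949 CPM and Mir434 at 4646 CPM. Within 10 kb of Mir3072, Mir410 held 488 CPM, Mir369 held 11241 CPM and Mir377 held 93.6 CPM.

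**Figure D3:**
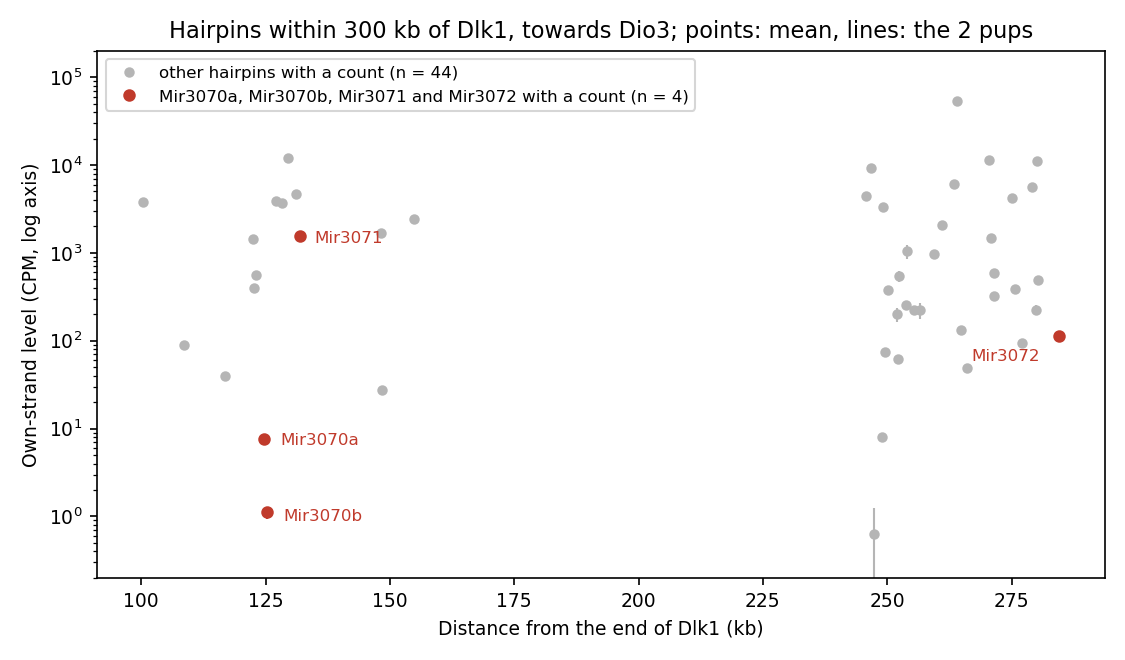
Own-strand level (CPM, log axis) of hairpins with a count against distance from the end of Dlk1 towards Dio3 (kb), within 300 kb. Points are means and lines join the 2 pups, and Mir3070a, Mir3070b and Mir3072 (red) lie low among the 44 other hairpins (grey) while the row listed as Mir3071 lies among them.

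The remaining 14 detected hairpins had mean levels of 21.1 CPM or less and held 5.20% of the counts of the whole range. Mir3093 led them with 57 counts in each library, or 24.4 and 17.8 CPM, and lies in an intron of the noncoding gene Gm3764 with 340 bases between it and Mir9-1, which has no row. Mir3080, in an intron of the transcriptional regulator gene Tcf20, had 32 and 64 counts, or 16.9 ± 4.48 CPM. Mir3057, in an exon of a noncoding transcript of Apba3, had 39 and 38 counts, or 14.3 CPM. Apba3 encodes an adaptor of the X11 family, which binds amyloid precursor protein.

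Mir3066 in Nol10, which encodes a nucleolar protein, had 20 counts in pup 1 and 49 in pup 3. Mir3067 in Smoc1, which encodes a secreted calcium-binding protein, had 26 and 21. Mir3106 in Csmd1, a large membrane protein gene expressed in brain, had 18 and 28 counts. All of these hairpins are in introns. Mir3081, in an intron of Boc, a coreceptor for Sonic hedgehog, had 22 counts in each library. Mir3060 in an intron of Rnf215 had 15 and 30 counts, and Mir3085, in no host gene, had 19 and 14. These 6 ranged from 6.26 CPM for Mir3085 to 11.9 CPM for Mir3066.

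By position, 37 of the 49 hairpins lay only within a host gene on their own strand, and 15 of these were detected. Of the 6 with no host, 1 was detected. Both Mir3071 and Mir3074-1 were detected among the 3 opposite another hairpin, and 2 of the 3 further hairpins in the Dlk1-Dio3 domain. A hairpin within 10 kb on the same strand was annotated for 7, of which 6 were detected, while 14 of the 42 with no such neighbour were. These counts are descriptions of this list. The host and neighbour classes were not counted over all genes, of which 18.2% were detected. Mir3070a, Mir3070b, Mir3071 and Mir3072 of the Dlk1-Dio3 domain are among the 7, and 47 of the 59 genes of that domain were detected. The 49 hairpins lie on 18 chromosomes.

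Some hairpins of the range end where an intron ends. Among the 34 that lie in an intron of a host transcript, 9 (26.5%) had their 3′ end within 5 bases of the intron's 3′ end. This count was chosen after the values were seen. Among other genes of the tables in introns the share was 23.6% (192 of 813). It was 0.820% below Mir1000 and 62.9% above Mir3113, so the range lies between the early and the late numbers. In all 9 introns the last 2 bases were AG. Other introns were not examined for this, so it sets these hairpins apart from no others. Of the 9, Mir3064 in Ddx5, an RNA helicase that is also part of the Drosha complex, Mir3097 in Rgs12, a regulator of G protein signalling, and Mir3076 in Tkt, the transketolase gene, were detected.

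Mir3064 had 30 and 37 counts, or 12.2 ± 0.889 CPM, Mir3097 had 25 and 29 counts, or 9.89 ± 1.15 CPM, and Mir3076 had 18 and 23 counts, or 7.45 ± 0.356 CPM. The other 6, Mir3094, Mir3104, Mir3103, Mir3100, Mir3082 and Mir3077, had between 1 and 13 counts in each library. The median was 2.17 CPM over the 9 and 3.96 CPM over the 25 that lie elsewhere in introns, of which 11 were detected. Among other genes of the tables, 16 of 192 at an intron end were detected, with a median of 0.370 CPM over the 192. Elsewhere in introns 169 of 621 were detected, and the median over the 621 was 0 CPM, so the medians there lay in the other order. A pair of the 9 hairpins is printed from the GENCODE M21 transcripts, in DNA letters on the gene's strand, to show the shared end. Capitals mark the AG that closes the intron.
Mir3097: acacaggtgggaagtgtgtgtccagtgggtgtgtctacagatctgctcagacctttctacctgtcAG
Mir3076: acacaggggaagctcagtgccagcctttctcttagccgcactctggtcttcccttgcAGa
Mir3097 (chromosome 5, 35021049 to 35021115, plus strand) ends with the last base of its intron, and Mir3076 (chromosome 14, 30572149 to 30572208, plus strand) runs 1 base past it. Their introns hold 642 and 903 bases ahead of the hairpin. In Sap18 and BC017158, 69 and 23 bases lie ahead of Mir3077 and Mir3103. No hairpin of the range fills its intron, so each of the 9 has its 3′ end at a splice site and a tail of intron on its 5′ side.

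Little was shared among the mature sequences of the detected hairpins. The RefSeq table held 34 mature sequences for 18 of the 20 detected hairpins, and these have 33 distinct seeds. The exception joins Mir3064 and Mir3085, on different chromosomes.
miR-3064-5p: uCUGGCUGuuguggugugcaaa
miR-3085-3p: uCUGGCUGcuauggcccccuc
Both begin with U and carry the seed CUGGCUG, and their hairpins had 12.2 and 6.26 CPM. Mir3070a, which was detected, and Mir3070b, which was not, have the same 5p sequence and the same 3p seed. Of the 34 sequences 13 begin with U, the base that Argonaute proteins favour at that place. Over all 87 mature sequences of the range, from detected and undetected hairpins, 35 do, a similar share. The detected hairpins had a median GC content of 55.5% and those not detected 53.3%, and their median lengths were 83.5 and 85 bases. The other detected genes of the tables had a median GC content of 50% and a median length of 84 bases.

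Below the detection level 24 hairpins had counts. In 7 of them 1 library reached 10 counts, pup 3 in 5 (Mir3062, Mir3058, Mir3094, Mir3075 and Mir3086) and pup 1 in 2 (Mir3105 and Mir3088). The highest was Mir3062, in Pfas, with 9 and 20 counts. The other 17 had at most 7 counts in either library, from Mir3104 with 5 and 7 down to Mir3079, Mir3091 and Mir3101, each with 0 counts in 1 library. Mir3104, Mir3089, Mir3083, Mir3103, Mir3100, Mir3070b, Mir3082, Mir3108, Mir3110, Mir3098, Mir3077, Mir3112, Mir3073a and Mir3109 make up the rest. Mir3063, Mir3090, Mir3092, Mir3095 and Mir3113 had 0 counts in both libraries. Mir3113 shares a run of 25 bases with another hairpin. For these 5, levels within the limits given above for a count of 0 were not detectable at this depth.

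Other number ranges were set beside this one. The share detected was 61.4% among let-7 genes and numbers below Mir1000 (291 of 474), 25.6% from Mir1000 to below Mir3057 (21 of 82), 40.8% in the range itself and 5.17% above Mir3113 (23 of 445). These shares are given without a test. Median levels of detected genes, in the same order of ranges, were 404, 27.8, 12.2 and 9.24 CPM. The range from Mir3057 to Mir3113 thus had a larger share detected than the range just before it, at a lower median level. The size of this gap depends on the cutoff. With 5 counts in each library 26 of 49 and 24 of 82 were detected, and with 20 counts 14 of 49 and 18 of 82. Let-7 genes and numbers below Mir1000 held 98.9% of all own-strand counts. Any count at all was found for 44 of 49 hairpins of the range, 39 of 82 of the range before it and 221 of 445 above it.

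**Figure D4:**
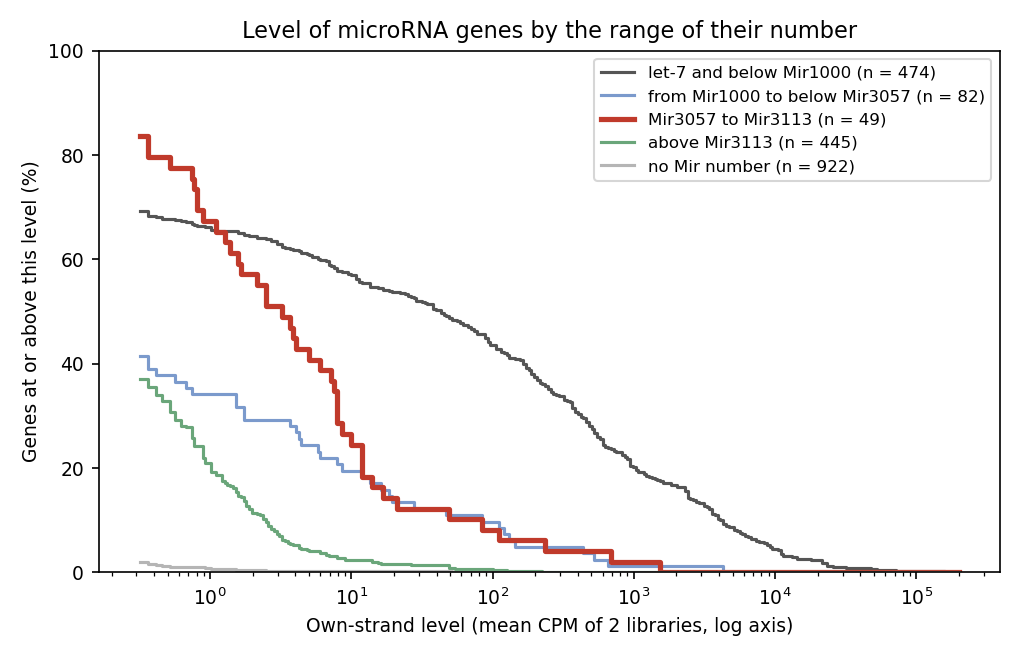
Percent of genes at or above each own-strand level (mean CPM of both libraries, log axis), by range of the gene's number. The curve for Mir3057 to Mir3113 (red, n = 49) starts highest at low levels and falls steeply near 10 CPM. There the curve for let-7 and numbers below Mir1000 stays high.

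The animals were close in most of these hairpins. Of the 23 with a mean count of at least 10, 17 lay within 1.5-fold and 21 within 2-fold of each other, with a median log2 ratio of pup 3 over pup 1 of 0.01 and a median size of 0.28. Over all 372 genes tested these medians were 0.01 and 0.17, and 327 and 358 genes lay within 1.5-fold and 2-fold. Of the 23, 12 had the higher value in pup 3 and 11 in pup 1. For each gene a two-sided Fisher's exact test with Benjamini-Hochberg adjustment compared its counts with the rest of the counts in each library. It compares 2 libraries, not conditions, and has no replicate check.

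Only Mir3078 passed this test with at least a 2-fold ratio (1 of 23), where 2.69% of all genes tested passed in either direction. Of all genes 1.61% passed as higher in pup 3, as Mir3078 did, and 1.08% as higher in pup 1, where no hairpin of the range passed (0 of 23, with Mir3105 and Mir3059 at unadjusted p of 0.0274 and 0.0180). It had 15 counts in pup 1 and 58 in pup 3, or 6.42 and 18.2 CPM. The log2 ratio was 1.43, or 2.69-fold with a 95% counting interval of 1.53 to 5.19-fold, and the adjusted p of Fisher's exact test was 0.00038. Mir3078 lies on chromosome 14, in an exon of the noncoding host transcript of Mir124a-1, with 443 bases between the hairpins. Mir124a-1, a neuronal microRNA gene, had 27 and 37 counts and a log2 ratio of -0.05 (0.574 to 1.65-fold, adjusted p = 1 by Fisher's exact test), and its level is uncertain because of its shared run. The RefSeq table gave no mature sequence for Mir3078. All 3 epithelial markers checked were also higher in pup 3. Mir200b had 42 counts in pup 1 and 378 in pup 3, Mir141 had 4 and 64, and Mir200c had 46 and 392. Of the red cell markers, Mir451a was lower in pup 3 at 202 and 99 counts, and Mir144 had 47 and 93. The part of other cell types in the ratio of Mir3078 was not tested.

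With no minimum ratio, 4 of the 23 passed the adjusted test, against 44.1% of all genes tested. Mir3071 had a log2 ratio of 0.13 (1.04 to 1.14-fold, adjusted p = 1.42e-07 by Fisher's exact test) and Mir3099 of 0.15 (1.04 to 1.18-fold, 5.42e-05). Mir3059 had the opposite sign at -0.24 (0.760 to 0.946-fold, 0.0414), and did not pass when genes of any count were tested (adjusted p = 0.0771). These 3 ratios are all under 1.2-fold in size. Mir3105, in an intron of the postsynaptic scaffold gene Shank2, had 14 and 7 counts, a log2 ratio of -1.43 and an adjusted p of 0.0599 by Fisher's exact test. Mir3066 had 20 and 49 counts, 0.78 and 0.0608. Neither passed.

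**Figure D5:**
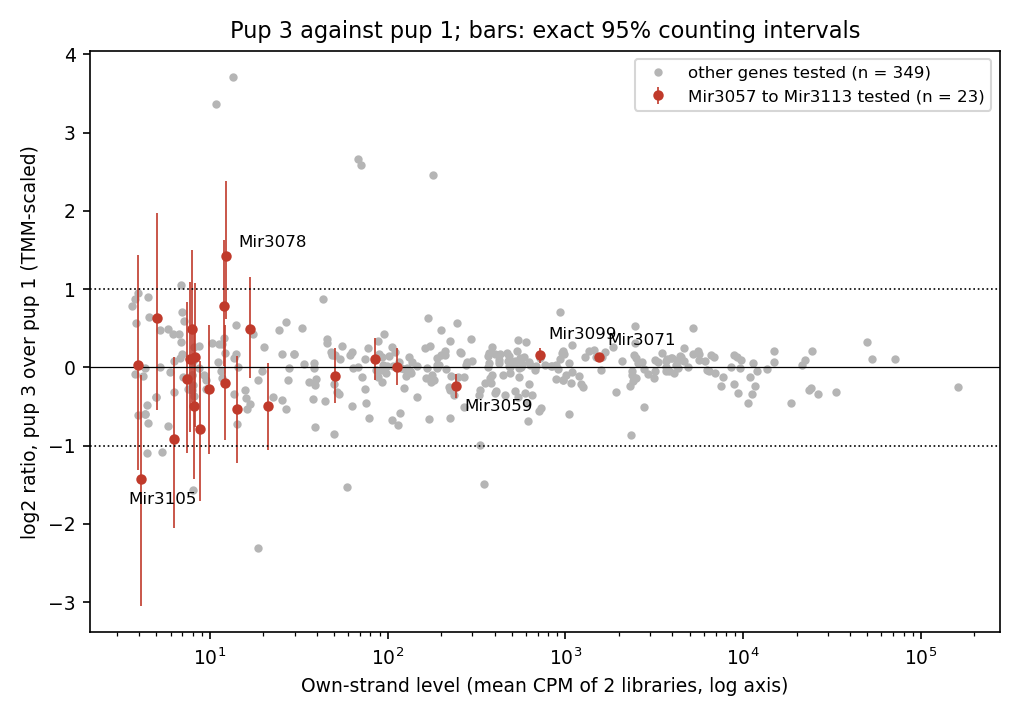
Log2 ratio of pup 3 over pup 1 (TMM-scaled) against mean own-strand level (CPM, log axis) for the 23 hairpins of the range (red, with exact 95% counting intervals) and the 349 other genes tested (grey), with dotted lines at 2-fold. Mir3078 lies above the upper line with its interval clear of 0, Mir3105 lies below the lower line without passing the test, and the abundant Mir3071, Mir3099 and Mir3059 lie near 0.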

How the data were processed

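The tables were deposited as unnormalized counts for each gene, for reads on either strand, the own strand and the opposite strand, made on mm10 with the GENCODE M4 annotation per the deposited descriptions. The aligner and counter were not given in the sources used here. Gene identifiers were matched without version to GENCODE M21 (GRCm38), which gave a symbol to 1894 of 1973 genes. Mature sequences came from RefSeq (GRCm38.p6), which matched 46 of the 49 hairpins. The 4 rows that name no gene, 57.2% and 56.7% of the reads of pup 1 and pup 3, stayed out of library sizes and tests.

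The hairpins and lists were chosen with earlier results of these data known. Every hairpin of the range was accounted for. Other genes were named where they overlap a hairpin of the range, lie within 10 kb on the same strand, share its seed or are tissue markers. Other hairpins of the Dlk1-Dio3 domain, the other host genes and the intron-end counts were named after values were seen. CPM were computed over own-strand counts on genes. Detection needed 10 counts in each library.

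Ratios were scaled by TMM (edgeR 4.0.16, R 4.3.3, prior count 0.5) for the 372 genes whose counts averaged 10 or more. The counts of these genes, not the scaled ratios, were tested against unscaled library totals with Fisher's exact test (scipy 1.17.1) with Benjamini-Hochberg adjustment over all of them. For small ratios the test and the scaled interval can therefore differ. Genes were called at an adjusted p under 0.05 and at least 2-fold. The calculation was tested on simulated data with counting error alone and set changes. That simulation held no spread between animals, so it does not show how the test behaves with such spread. DESeq2 1.42.0 size factors, plain CPM, other minimums, fold thresholds and prior counts, either-strand counts and each pup alone were alternatives. Exact matches of 20 or more bases to other hairpins were searched in the hairpin sequences.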

Additional observations from a re-analysis of the deposited data

Results flagged for a closer look

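Reads opposite Mir3074-1 were found in a column outside the main measurement. The opposite strand had 33 counts in pup 1 and 40 in pup 3, or 14.1 and 12.5 CPM, a mean of 13.3 ± 1.13 CPM (SD, n = 2). This is above the 1.28 and 0.939 CPM that a count of 0 allows. These counts were 14.9% and 12.3% of the either-strand counts at this gene. Mir24-1 lies there on the opposite strand and has no row of its own. Strand here is that of the row, whose version differs from M21. Reads within the run of 30 bases shared with Mir3074-2 and Mir24-2 enter no gene, so the counts do not measure how the 2 strands compare. Of the other 48 hairpins, 44 had 0 opposite-strand counts in both libraries. Mir3071, Mir3073a, Mir3083 and Mir3086 had at most 3 in either.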

How the results depend on the processing

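With 1 or 5 counts in each library 41 or 26 hairpins were detected in place of 20, with 20 counts in each 14, with 10 counts over both libraries 28, and with each pup alone 22 to 25. The share of own-strand counts, 0.294% as a mean, was 0.351% without the most abundant gene of the tables in the total and 0.140% without the row listed as Mir3071. With each pup alone it was 0.281% to 0.308%. The median level of detected hairpins, 12.2 CPM, was 14.6 CPM without the most abundant gene and 11.98 to 13.6 CPM with each pup alone. The call of Mir3078 was lost with a mean count of at least 50, since its own mean count is below that. Then 0 of 7 hairpins passed Fisher's exact test with Benjamini-Hochberg adjustment at 2-fold, and 3 had an unadjusted p under 0.05. With no fold threshold 4 passed. No filter, a 1.5-fold threshold and either-strand counts each gave 1. Scaling and prior count do not enter the p of the test, so plain CPM, DESeq2 size factors and a prior count of 2 bear only on the ratio of Mir3078, a log2 value of 1.36 to 1.47 under them. Among the 4, Mir3059 had an adjusted p of 0.0771 by Fisher's exact test with no filter, in a range from 0.0328. Leaving out the row listed as Mir3071, chosen after seeing the data, left 19 detected and the 1 call. Under plain CPM and DESeq2 size factors no hairpin's ratio changed sign. Depth limits the 29 hairpins not detected, since 10 counts stand for 4.28 CPM in pup 1 and 3.13 CPM in pup 3. No paired analysis was possible because the series has only 1 group.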

Other observations

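A further 8 microRNA genes of the number range are annotated in GENCODE M21 without a row in the tables, among them Mir3065, Mir3074-2 and Mir3107, and were not analysed here. These 3 lie opposite hairpins that do have a row. Mir338, opposite Mir3065, had 1 count in pup 1 and 0 in pup 3 on the strand of Mir3065. Mir24-2, opposite Mir3074-2, had 0 in both. Mir486, opposite Mir3107, had 5 counts in pup 1 and 1 in pup 3, or 2.14 and 0.313 CPM. Mir3074-2 shares a run of 30 bases with Mir3074-1, and reads within it enter no gene, so the 0 there says nothing of its level. The 5 counts opposite Mir486 in pup 1 are above the 3 counts taken as the limit for 0, and the 1 count in pup 3 is not.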
